A study of Homo sapiens with 9 samples.

Results

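The genes of hyaluronan synthesis and breakdown were followed in MDA-MB-231 cells, a human triple-negative breast cancer line, depleted or not of glyoxalase 1 (GLO1), the enzyme that detoxifies methylglyoxal. The genes were chosen by name for what they do, with earlier results of these data known but no threshold on their values: the hyaluronan synthases HAS2 and HAS3, the hyaluronidases HYAL1, HYAL2 and HYAL3, the hyaluronan-degrading proteins CEMIP and TMEM2, the precursor enzyme UGDH and the hyaluronan receptor HMMR. They were 9 of the 26364 genes listed in the count tables, and 8 of them were among the 13704 genes with enough counts to be tested, HYAL1 being the exception. RNA was sequenced from 3 samples each of shGLO1#1 and shGLO1#2, clones stably silenced for GLO1 by shRNA, and of shNT, the clone with a non-targeting shRNA, making 9 libraries. All 3 groups thus share the parental line and the expression of an shRNA, and each condition is 1 line, so that a difference between groups cannot be told apart from a difference between clones. The labels do not say that the 3 samples of a clone came from separate cultures, so p-values measure only the spread between these samples.

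Hyaluronan is a long unsulfated polymer of alternating glucuronic acid and N-acetylglucosamine, built at the plasma membrane by the HAS enzymes and pushed out of the cell as it grows. Its sugar donors come from UDP-glucose, oxidised by UGDH, and from the hexosamine pathway, whose first step is carried out by the GFPT enzymes. Breakdown starts outside the cell or at its surface, through CEMIP, TMEM2 and HYAL2, and is finished in lysosomes by HYAL1 and exoglycosidases. In breast tumours a hyaluronan-rich matrix is known for its part in cell motility and invasion, through receptors such as CD44 and HMMR.

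Libraries held between 15314238 and 18495576 reads assigned to genes. Levels are given as CPM, gene counts scaled to the same depth, on the TMM-scaled library size, and 3 counts in a library correspond to 0.163 to 0.202 CPM. A gene was called where the edgeR quasi-likelihood test gave a Benjamini-Hochberg adjusted p under 0.05 and a log2 fold change beyond 1 in size. GLO1 averaged 65.4 ± 0.955 CPM in shGLO1#1 and 14.7 ± 0.760 CPM in shGLO1#2, against 317 ± 5.63 CPM in shNT (SD, n = 3 each). The 6 markers chosen for this mesenchymal line summed to 6874 to 7531 CPM in shGLO1#1 and 7285 to 7572 CPM in shGLO1#2, against 6788 to 7432 CPM in shNT. Among them VIM was at 3023 CPM or more in every library, but SPARC was near absent, with 40 counts in shGLO1#1 and 53 in shGLO1#2, against 5 in shNT, and was called higher in both clones. The luminal markers ESR1, PGR and FOXA1 did not exceed 0.432, 0.247 and 0.775 CPM. The luminal marker GATA3 was present, at a mean of 7.17 CPM in shGLO1#1 and 8.14 CPM in shGLO1#2, against 6.74 CPM in shNT. Of 8 markers of luminal, leukocyte and endothelial cells, 7 had counts in shGLO1#1 and 8 in shGLO1#2, against 6 in shNT, with summed levels of 83.8 to 89.2 CPM and 79.7 to 86.4 CPM in the clones, against 89.1 to 104 CPM in shNT, mostly of ERBB2. The leukocyte gene PTPRC was called lower (-2.79 and -1.71 on the log2 scale in shGLO1#1 and shGLO1#2) and the endothelial gene PECAM1 higher (1.66 and 1.90), with the endothelial CDH5 at 0 counts in shGLO1#1 and 3 in shGLO1#2, against 0 in shNT, and their part in the results was not tested.

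Among the 8 tested genes, 2 were called higher in shGLO1#1 than in shNT (HAS2 and CEMIP) and 0 lower, where 5.98% of all tested genes were called higher and 2.75% lower. In shGLO1#2 HAS2 was called higher and CEMIP lower than in shNT, against 5.09% and 2.59% of all genes. Without the fold limit, 5 of 8 passed the adjusted p in shGLO1#1 and 6 of 8 in shGLO1#2, against 45.7% and 38.1% of all genes. Between the clones, 0 of the 8 were called higher and 2 lower in shGLO1#2 than in shGLO1#1 (HAS3 and CEMIP), against 3.33% and 3.75% of all genes, and 4 of 8 passed the adjusted p alone, against 46.5%. With both clones set together against shNT, HAS2 was the only member called, where 7.22% of all genes were called in either direction. The median log2 fold change of the 8 genes was 0.18 in shGLO1#1 and -0.31 in shGLO1#2, where the median over all tested genes was 0.00125 and 0.00121. The 2 comparisons with shNT share the same 3 control libraries.

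**Figure D1:**
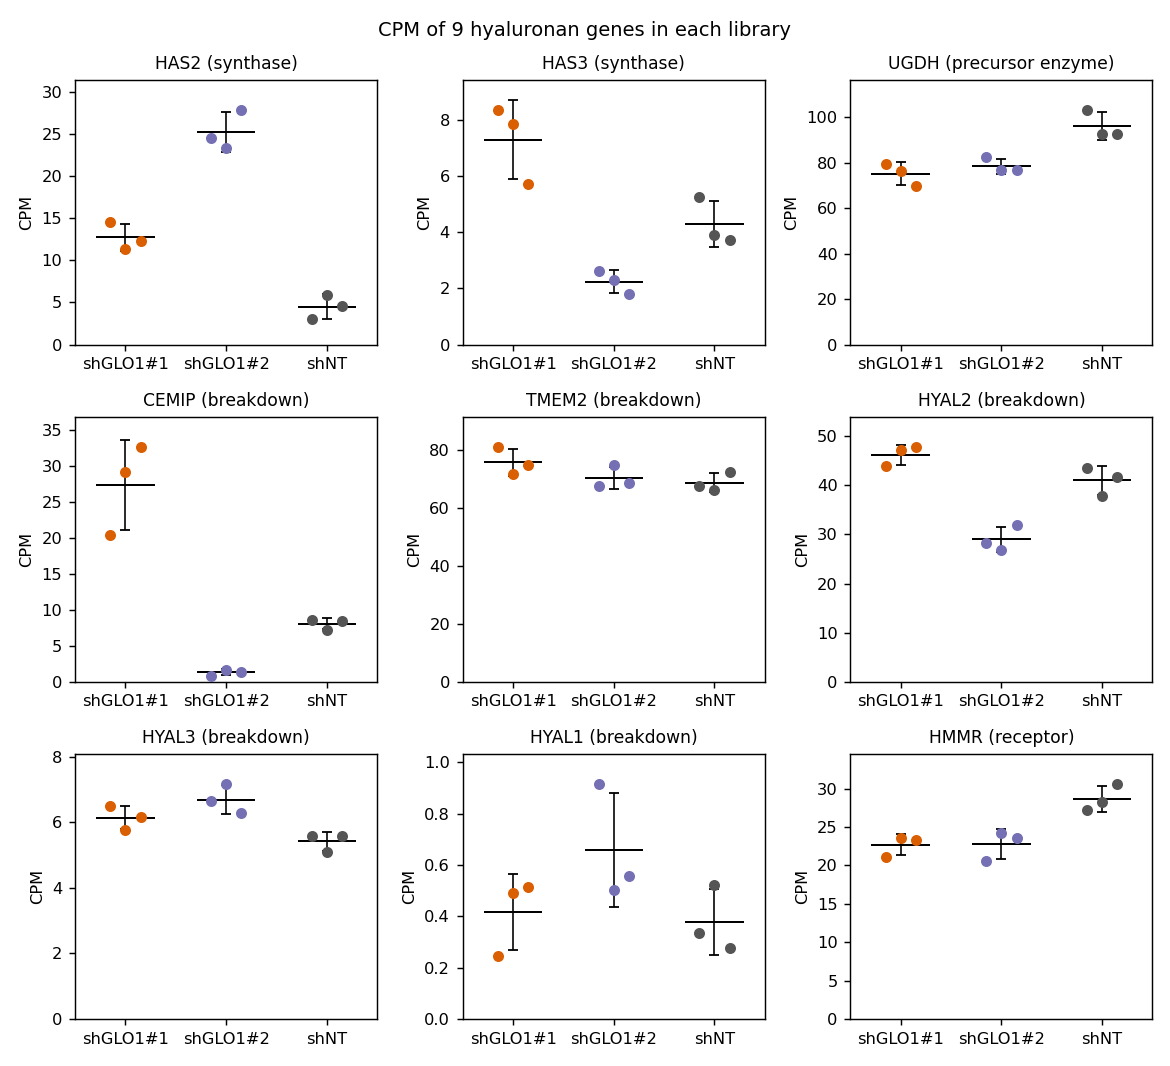
CPM of the 9 genes in each library of shGLO1#1, shGLO1#2 and shNT, each panel with its own axis from 0; points are libraries, horizontal lines are means and bars are SD (n = 3). HAS2 was higher in every library of both clones than in any shNT library, whereas CEMIP, HAS3 and HYAL2 were highest in shGLO1#1 and lowest in shGLO1#2.

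HAS2, the synthase that makes hyaluronan of high molecular mass in most mesenchymal cells, was the member that rose in both clones. Its level was 14.5, 11.3 and 12.3 CPM in the shGLO1#1 libraries and 24.5, 23.3 and 27.8 CPM in the shGLO1#2 libraries, against 3.02, 5.93 and 4.59 CPM in shNT. The 3 groups did not overlap, with every shGLO1#2 library above every shGLO1#1 library and every shGLO1#1 library above every shNT library. Against shNT, HAS2 rose 2.80-fold in shGLO1#1 (log2 fold change 1.48, 95% interval 1.09 to 1.88, adjusted p = 2.06e-05) and 5.55-fold in shGLO1#2 (2.47, interval 2.10 to 2.85, adjusted p = 2.61e-07). The clones themselves differed by 0.99 on the log2 scale (interval 0.66 to 1.32, adjusted p = 1.38e-04), just short of the fold limit, and passed it at 1.09, 1.01 and 1.05 without shGLO1#1 replicate 1, shGLO1#2 replicate 1 or shGLO1#2 replicate 2. The fewest reads behind a HAS2 value were the 45 counts of shNT replicate 1, the lowest shNT library. Without it HAS2 was still 1.28 higher in shGLO1#1 and 2.26 higher in shGLO1#2 on the log2 scale.

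HAS2-AS1, the antisense transcript of HAS2, was at 1.17, 1.36 and 1.37 CPM in shGLO1#1 and at 3.23, 3.18 and 2.79 CPM in shGLO1#2, against 0.739, 1.04 and 1.38 CPM in shNT. Its libraries overlapped between shGLO1#1 and shNT (log2 fold change 0.28, interval -0.29 to 0.85, adjusted p = 0.406), while it rose in shGLO1#2 (1.51, adjusted p = 1.68e-04). The exons of HAS2 and HAS2-AS1 share 201 bases on opposite strands, or 4.80% of the exonic bases of HAS2. The library kit keeps no strand, so reads of these bases cannot be assigned to either gene.

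HAS3, which makes shorter hyaluronan chains than HAS2, ran in opposite directions in the clones. It was at 8.33, 7.83 and 5.70 CPM in shGLO1#1 and at 2.62, 2.29 and 1.80 CPM in shGLO1#2, against 5.24, 3.91 and 3.71 CPM in shNT. Every shGLO1#1 library lay above every shNT library, and every shGLO1#2 library below. Set against shNT, HAS3 had log2 fold changes of 0.77 in shGLO1#1 (interval 0.36 to 1.18, adjusted p = 0.00480) and -0.93 in shGLO1#2 (interval -1.41 to -0.45, adjusted p = 0.00454), neither beyond the fold limit. It reached -1.02 in shGLO1#2 without shNT replicate 3 and -1.04 without shGLO1#2 replicate 1. HAS3 was 3.25-fold lower in shGLO1#2 than in shGLO1#1 (log2 fold change -1.70, interval -2.15 to -1.25, adjusted p = 2.00e-05). HAS3 shares 365 exonic bases, 7.50% of its own, with CHTF8 on the opposite strand, whose log2 fold change was -0.48 in shGLO1#1 and -0.12 in shGLO1#2. HAS1, the remaining synthase, had 0 counts in all 9 libraries, which allows at most 0.163 to 0.202 CPM in a library (counting error only).

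**Figure D2:**
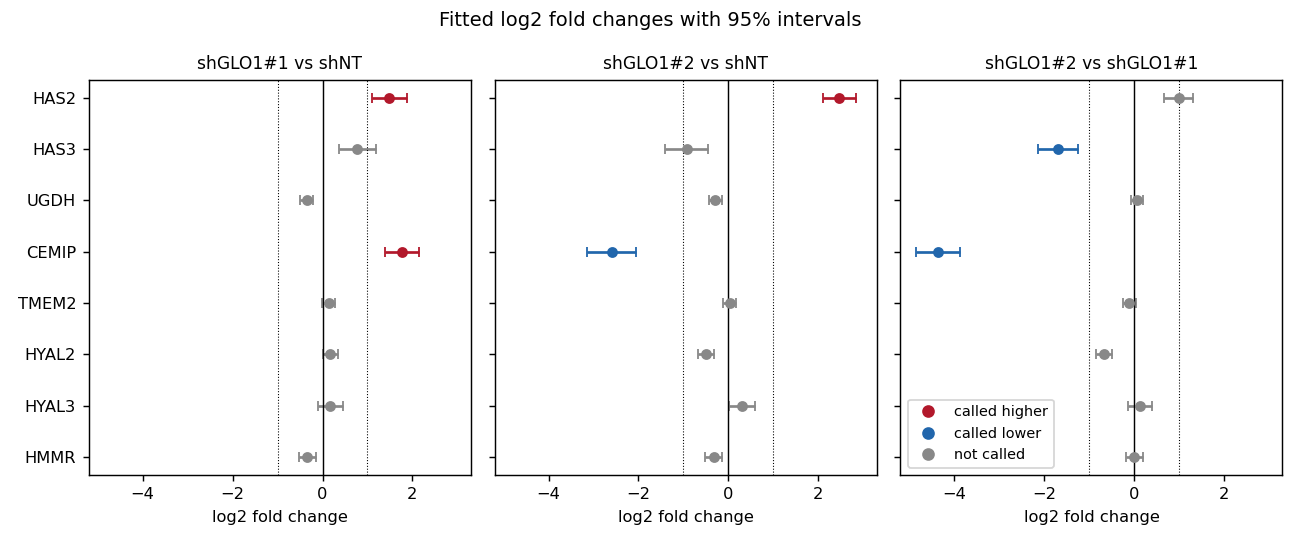
Log2 fold changes of the 8 tested genes from the edgeR fit for shGLO1#1 vs shNT, shGLO1#2 vs shNT and shGLO1#2 vs shGLO1#1; bars are 95% intervals and dotted lines the fold limit of 1. HAS2 was called higher in each clone than in shNT, CEMIP was called higher in shGLO1#1 and lower in shGLO1#2, and HAS3 and CEMIP were called lower in shGLO1#2 than in shGLO1#1.

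UGDH, which oxidises UDP-glucose to the UDP-glucuronic acid that the synthases use, was at 79.5, 76.1 and 69.9 CPM in shGLO1#1 and at 82.2, 76.6 and 76.6 CPM in shGLO1#2, against 103, 92.7 and 92.4 CPM in shNT. All 6 libraries of the clones lay below the 3 of shNT, and the clones overlapped each other. The difference was small, with a log2 fold change of -0.35 in shGLO1#1 (adjusted p = 6.63e-04) and -0.29 in shGLO1#2 (adjusted p = 0.00320), both short of the fold limit. Of the 6 other genes that supply or consume UDP-glucose and UDP-glucuronic acid, all tested, 0 were called in either clone by edgeR or DESeq2, and 4 in shGLO1#1 and 2 in shGLO1#2 had an unadjusted p under 0.05. At any fold, the adjusted p was passed in shGLO1#1 by 4 of these 6 genes, 2 rising and 2 falling. They included UGP2, which makes UDP-glucose (0.54), and UXS1, which turns UDP-glucuronic acid into UDP-xylose (-0.55). In shGLO1#2 it was passed by 1 of the 6, which fell. For comparison, the share of all tested genes passing it was 45.7% in the first clone and 38.1% in the second, counting both directions.

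Of 9 tested hexosamine pathway genes, 1 was called higher and 0 lower in each clone, where 5.98% and 5.09% of all tested genes were called higher. It was the same gene in both, GFPT2, an isoform of the amidotransferase that commits fructose 6-phosphate to UDP-N-acetylglucosamine. GFPT2 was at 26.5, 21.9 and 16.4 CPM in shGLO1#1 and at 31.4, 34.7 and 27.2 CPM in shGLO1#2, against 3.23, 12.3 and 8.08 CPM in shNT, with the 3 groups not overlapping. On the log2 scale GFPT2 was 1.45 higher in shGLO1#1 (adjusted p = 0.00118, SE 0.29) and 1.98 higher in shGLO1#2 (adjusted p = 1.06e-04, SE 0.29) than in shNT. Without shNT replicate 1, its lowest library, the values were 1.09 and 1.62. NAGK, which salvages N-acetylglucosamine, was 0.87 higher in shGLO1#1 and 0.32 higher in shGLO1#2 on the log2 scale, and the median of the 9 genes was 0.06 and 0.11. Past the adjusted p at any fold, 3 of the 9 differed in each clone, against 45.7% of all tested genes in shGLO1#1 and 38.1% in shGLO1#2. Beside GFPT2 and NAGK, the gene in shGLO1#1 was GFPT1, the second isoform of the amidotransferase, at -0.19. In shGLO1#2 it was PGM3, which makes N-acetylglucosamine 1-phosphate, at 0.19.

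CEMIP, a secreted and cell-surface protein needed for hyaluronan depolymerisation, changed most among the members and in opposite directions. It was at 20.4, 29.2 and 32.6 CPM in shGLO1#1 and at 0.853, 1.68 and 1.43 CPM in shGLO1#2, against 8.53, 7.17 and 8.47 CPM in shNT. The 3 groups did not overlap, and the shGLO1#2 values rested on 14, 30 and 23 counts. Against shNT, CEMIP rose 3.40-fold in shGLO1#1 (log2 fold change 1.77, interval 1.39 to 2.14, adjusted p = 2.74e-06) and was 6.05-fold lower in shGLO1#2 (log2 fold change -2.60, interval -3.14 to -2.05, adjusted p = 3.41e-06). Between the clones CEMIP was 20.6-fold lower in shGLO1#2 than in shGLO1#1 (log2 fold change -4.36, SE 0.23, adjusted p = 1.79e-08). The pooled value of both clones against shNT, -0.42 (adjusted p = 0.0897), averages these opposite changes. CEMIP shares 102 exonic bases, 1.38% of its own, with MESDC2 on the opposite strand, and MESDC2 had log2 fold changes of 0.09 and 0.07 in shGLO1#1 and shGLO1#2.

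HAS3 and CEMIP were the members called between the clones, so their promoter sequences are shown, each 300 bases from 250 before the RefSeq start to 50 from it (build GRCh38.p14, plus strand in both). Capitals mark the GC box GGGCGG, the E-box CACGTG and the TATA box TATAAA, searched on both strands, so that CCGCCC is the GC box read on the other strand. The first window is CEMIP at chr15:80779120-80779419 and the second HAS3 at chr16:69107290-69107589.
CEMIP: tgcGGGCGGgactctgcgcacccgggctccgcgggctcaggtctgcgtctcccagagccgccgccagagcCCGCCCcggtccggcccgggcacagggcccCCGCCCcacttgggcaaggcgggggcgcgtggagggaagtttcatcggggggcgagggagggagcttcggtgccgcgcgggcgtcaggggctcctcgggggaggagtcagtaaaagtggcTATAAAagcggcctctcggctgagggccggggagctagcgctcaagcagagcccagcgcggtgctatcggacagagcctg
HAS3: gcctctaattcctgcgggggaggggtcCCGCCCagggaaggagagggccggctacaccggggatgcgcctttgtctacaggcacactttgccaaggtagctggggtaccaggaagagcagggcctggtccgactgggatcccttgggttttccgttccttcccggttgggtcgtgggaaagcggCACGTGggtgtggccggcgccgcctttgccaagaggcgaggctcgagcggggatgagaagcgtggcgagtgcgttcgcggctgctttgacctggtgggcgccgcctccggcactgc
The CEMIP window held TATAAA with its first base at position -30, where the start is 0, and 3 GC boxes. The HAS3 window held CACGTG at -66 and 1 GC box. Of 35116 RefSeq promoter windows of the same length, 11.5% held TATAAA, 7.26% CACGTG and 45% GGGCGG. RefSeq windows were matched for 8 of the 9 members, and among them TATAAA stood only in CEMIP and CACGTG only in HAS3. The AP-1 motif TGANTCA, present in 7.71% of all windows, and the SMAD motif GTCTAGAC, in 0.202%, were in none of the 8. These matches describe letters in the windows and say nothing of binding.

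TMEM2 (CEMIP2 in current annotation), a membrane protein related to CEMIP with hyaluronidase activity described in mice, did not follow it. TMEM2 was at 80.8, 71.6 and 74.6 CPM in shGLO1#1 and at 67.5, 74.7 and 68.6 CPM in shGLO1#2, against 67.5, 66.0 and 72.4 CPM in shNT, and its groups overlapped in every pairing. The log2 fold change was 0.14 in shGLO1#1 (interval -0.00 to 0.28, adjusted p = 0.102) and 0.03 in shGLO1#2 (interval -0.11 to 0.18, adjusted p = 0.728).

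HYAL2, the GPI-anchored hyaluronidase that cleaves long chains at the cell surface, was at 43.9, 47.1 and 47.7 CPM in shGLO1#1 and at 28.3, 26.9 and 31.8 CPM in shGLO1#2, against 43.5, 37.8 and 41.6 CPM in shNT. Every shGLO1#2 library was below every shNT library (log2 fold change -0.50, adjusted p = 3.05e-04), short of the fold limit. Every shGLO1#1 library was above every shNT library, but the difference did not pass the test (0.17, adjusted p = 0.0912). It passed under upper quartile scaling (0.21, adjusted p = 0.0474), and over all alternatives run its adjusted p ranged from 0.0388 to 0.304. The clones differed by -0.68 on the log2 scale (adjusted p = 1.83e-05), shGLO1#2 being the lower.

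HYAL3, whose own hyaluronidase activity is weak, was at 6.48, 5.77 and 6.16 CPM in shGLO1#1 and at 6.64, 7.15 and 6.27 CPM in shGLO1#2, against 5.58, 5.09 and 5.59 CPM in shNT. All 6 clone libraries were above the 3 of shNT, but neither difference passed the test (0.18, adjusted p = 0.289, in shGLO1#1, and 0.30, adjusted p = 0.0823, in shGLO1#2). HYAL3 shares 248 exonic bases, 12.5% of its own, with NAT6 on the same strand and 43 bases with IFRD2, so some of its reads could not be told from theirs. HYAL1, the lysosomal hyaluronidase, had 4, 9 and 9 counts in shGLO1#1 and 15, 9 and 9 counts in shGLO1#2, against 5, 8 and 5 counts in shNT. Fitted without the filter on low counts, HYAL1 had log2 fold changes of 0.17 in shGLO1#1 (adjusted p = 0.855) and 0.80 in shGLO1#2 (adjusted p = 0.227), neither passing the test. SPAM1, the sperm hyaluronidase, had 1 count in all, and the pseudogene HYALP1 had 0. Of 6 other hyaluronidases and lysosomal exoglycosidases, 3 were tested and 0 called in either clone by edgeR or DESeq2, with 2 in each at an unadjusted p under 0.05 and medians of 0.16 and -0.22. The adjusted p was passed by 1 in shGLO1#1 and 2 in shGLO1#2, against 45.7% and 38.1% of all tested genes.

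HMMR, a hyaluronan receptor that also binds the mitotic spindle, was at 21.2, 23.6 and 23.4 CPM in shGLO1#1 and at 20.6, 24.3 and 23.6 CPM in shGLO1#2, against 27.2, 28.2 and 30.6 CPM in shNT. All 6 clone libraries lay below the 3 of shNT, and the clones overlapped. Its log2 fold change was -0.34 in shGLO1#1 (adjusted p = 0.00700) and -0.33 in shGLO1#2 (adjusted p = 0.00942), short of the fold limit. Of 15 mitotic genes, all tested, 0 were called in either clone by edgeR or DESeq2, and 12 in shGLO1#1 and 4 in shGLO1#2 had an unadjusted p under 0.05. Past the adjusted p alone, 10 were lower and 0 higher in shGLO1#1 (median -0.23), and 1 was higher and 1 lower in shGLO1#2 (median 0.00457). Over all tested genes, 45.7% passed it in shGLO1#1 and 38.1% in shGLO1#2, in either direction. MKI67, a nuclear protein of cycling cells, was -0.64 in shGLO1#1 and -0.35 in shGLO1#2, while TPX2, a spindle partner of HMMR, was -0.21 (adjusted p = 0.00372) and -0.02 (adjusted p = 0.808). The part of the mitotic genes in the HMMR values was not tested. In bulk RNA, fewer cells in mitosis and less RNA per cell cannot be told apart.

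CD44, the main hyaluronan receptor of this line, was at 403, 444 and 424 CPM in shGLO1#1 and at 325, 372 and 370 CPM in shGLO1#2, against 395, 437 and 445 CPM in shNT. The shGLO1#2 libraries lay below all others, with a log2 fold change of -0.26 against shNT (adjusted p = 0.00681). The value in shGLO1#1 was -0.01 (interval -0.15 to 0.13, adjusted p = 0.933). Of 7 receptor genes, CD44 included, 4 were tested and 0 were called in either clone by edgeR or DESeq2, with 2 in shGLO1#1 and 3 in shGLO1#2 at an unadjusted p under 0.05. The same numbers, 2 and 3, passed the adjusted p, where 45.7% and 38.1% of all tested genes did. LAYN, a membrane hyaluronan receptor, was -0.53 in each clone. TLR4, listed with the receptors, was lower in shGLO1#1 (-0.32, adjusted p = 0.00204) but higher in shGLO1#2 (0.23, adjusted p = 0.0154).

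Of 16 genes of hyaluronan-binding matrix, 4 were tested and 1 was called higher in each clone, a different gene in each. Of all tested genes, 5.98% were called higher in shGLO1#1 and 5.09% in shGLO1#2. ITIH4 was entered for its family, that of the heavy chains, and its own binding of hyaluronan was not measured. It was at 5.37, 5.98 and 5.82 CPM in shGLO1#1 and at 4.51, 3.07 and 3.60 CPM in shGLO1#2, against 2.69, 2.41 and 2.27 CPM in shNT. It was called in shGLO1#1 (log2 fold change 1.22, adjusted p = 7.96e-05) and short of the fold limit in shGLO1#2 (0.60, adjusted p = 0.0201). PTX3, a pentraxin that cross-links hyaluronan heavy-chain complexes, was at 33.1, 32.4 and 31.9 CPM in shGLO1#1 and at 43.6, 58.7 and 50.5 CPM in shGLO1#2, against 12.0, 22.4 and 18.8 CPM in shNT. It was called in shGLO1#2 (1.52, adjusted p = 8.00e-06) and short of the fold limit in shGLO1#1 (0.87, adjusted p = 7.63e-04), where it reached 1.07 without shNT replicate 2. Among 10 tested enzymes that build chondroitin and heparan chains, CSGALNACT1, which starts chondroitin chains, was the only gene called. It was called lower in shGLO1#2, where 2.59% of all tested genes were. CSGALNACT1 was at 15.9, 17.0 and 16.2 CPM in shGLO1#1 and at 8.10, 6.31 and 8.07 CPM in shGLO1#2, against 20.0, 16.8 and 20.8 CPM in shNT (shGLO1#2 against shNT -1.36, adjusted p = 1.80e-06).

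**Figure D3:**
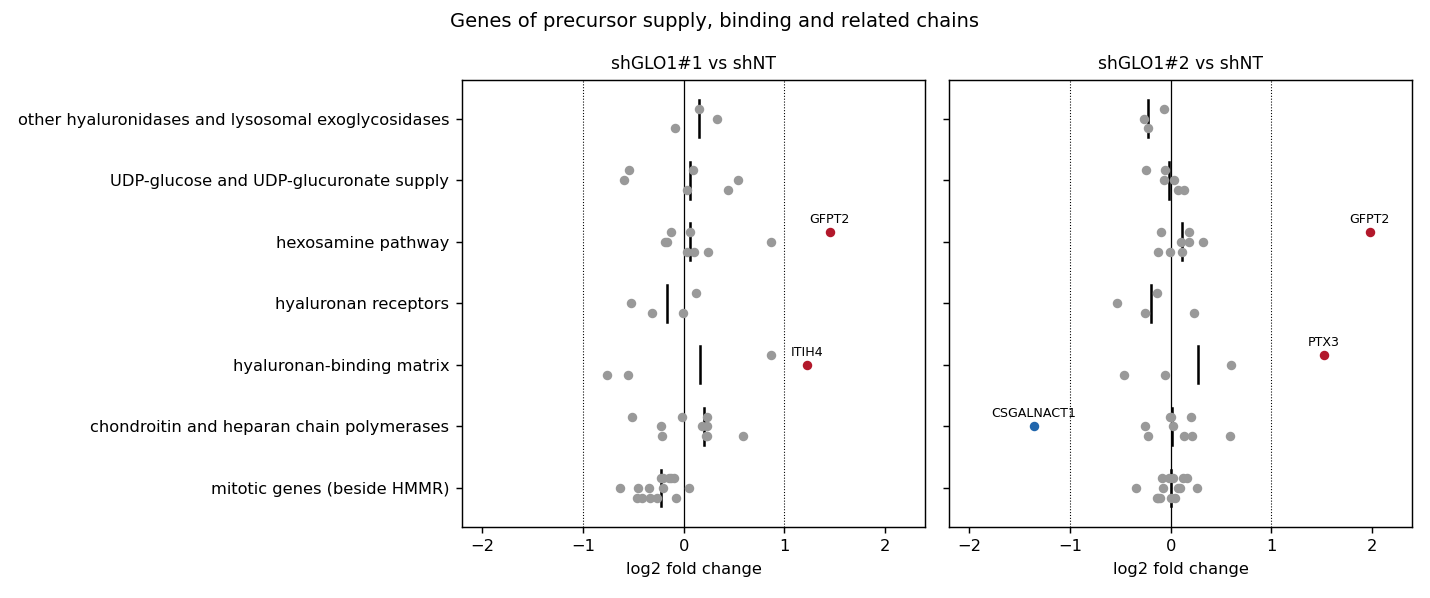
Log2 fold changes of tested genes of 7 related lists in shGLO1#1 vs shNT and shGLO1#2 vs shNT; each point is a gene, red called higher, blue called lower, grey not called, short lines the list medians and dotted lines the fold limit of 1. GFPT2 was called in both clones, ITIH4 in shGLO1#1, and PTX3 and CSGALNACT1 in shGLO1#2.

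To set synthesis against breakdown within each library, the mean log2 CPM of HYAL1, HYAL2, HYAL3, CEMIP and TMEM2 was subtracted from that of HAS2 and HAS3. This score weighs each gene equally, says nothing of enzyme activity, and is given with no p. Gene length does not enter it, so that only differences between groups are read and not its sign. It was 0.06, -0.40 and -0.64 in shGLO1#1 and 0.34, 0.14 and 0.13 in shGLO1#2, against -1.13, -0.85 and -1.03 in shNT. With these genes, every clone library lay above every shNT library, and every shGLO1#2 library above every shGLO1#1 library. The mean differed by 0.68 in shGLO1#1 and by 1.20 in shGLO1#2 from shNT. The size and the separation depended on the genes entered. With UGDH among the synthesis genes the difference fell to 0.18 in shGLO1#1, whose libraries then overlapped those of shNT, and to 0.84 in shGLO1#2. The difference was 0.21 and 2.10 with CEMIP and TMEM2 as the only breakdown genes, where shGLO1#1 again overlapped shNT. Without CEMIP it was 0.65 in shGLO1#2, while in shGLO1#1 it was larger than 0.68.

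The parts of the score moved differently in the clones. In shGLO1#1 the synthesis mean was 1.15 and the breakdown mean 0.47 above shNT, while in shGLO1#2 the synthesis mean was 0.80 above shNT and the breakdown mean differed from it by -0.41. The order of the clones rests on CEMIP, since without it the shGLO1#2 minus shGLO1#1 difference of 0.53 became -0.35. For HAS2 and CEMIP alone the log2 difference was -0.49, -1.37 and -1.40 in shGLO1#1 and 4.80, 3.77 and 4.26 in shGLO1#2, against -1.49, -0.27 and -0.88 in shNT. In this pair shGLO1#1 overlapped shNT, and shGLO1#2 stood above both.

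**Figure D4:**
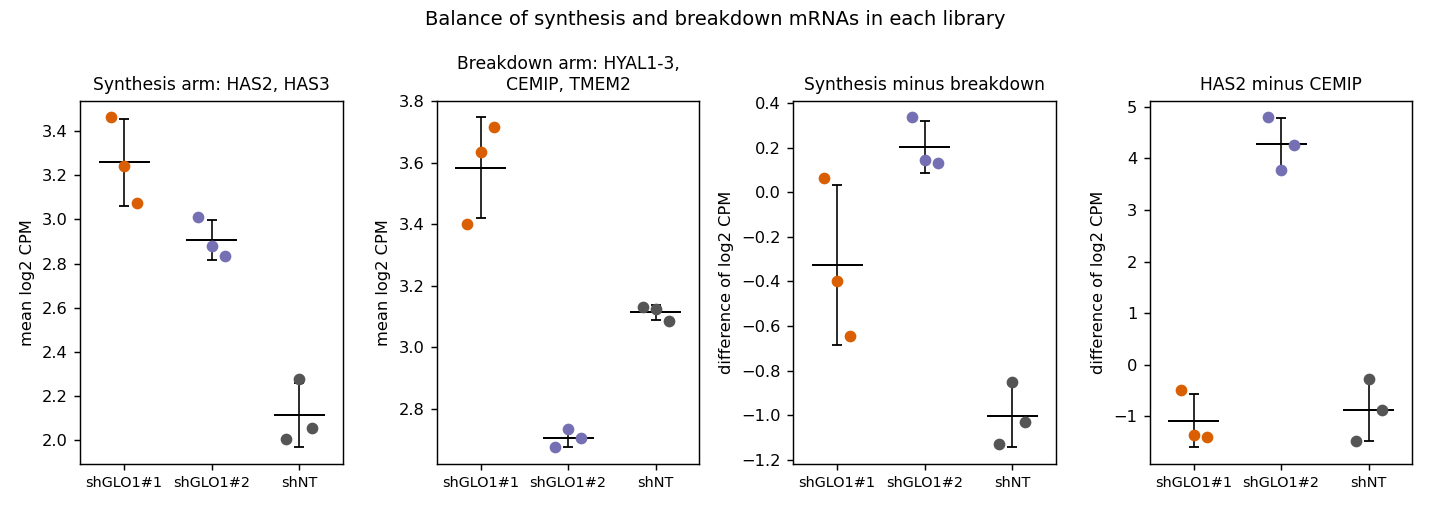
Mean log2 CPM of the synthesis and breakdown genes, their difference, and HAS2 minus CEMIP in each library of shGLO1#1, shGLO1#2 and shNT; points are libraries, horizontal lines means and bars SD (n = 3), and the axes do not start at 0. Synthesis minus breakdown was higher in every clone library than in shNT, while HAS2 minus CEMIP was higher in every shGLO1#2 library than in any shGLO1#1 or shNT library.

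Levels between genes were compared per kilobase of exon. UGDH was the highest member in all 3 groups, at 22.2 CPM per kb in shGLO1#1 and 23.1 in shGLO1#2, against 28.3 in shNT. TMEM2 came next with 11.4 and 10.6 CPM per kb in shGLO1#1 and shGLO1#2, against 10.3 in shNT, where TMEM2 and HYAL2 (9.81 CPM per kb) overlapped, as they did in shGLO1#1 (HYAL2 at 11.1). HAS2 was 3.03 CPM per kb in shGLO1#1 and 6.01 in shGLO1#2, against 1.08 in shNT, where HAS2, CEMIP (1.09) and HAS3 (0.881) overlapped. HYAL1 was lowest in shGLO1#1 and shNT, and in shGLO1#2 CEMIP (0.179 CPM per kb) overlapped HYAL1 (0.212). HAS2 made up 67.0 ± 4.42% of the summed synthase signal per kb in shGLO1#1 and 92.8 ± 1.67% in shGLO1#2, against 54.3 ± 12.5% in shNT (SD, n = 3 each). In this share shGLO1#1 (62.7 to 71.5%) overlapped shNT (40.1 to 63.8%). CEMIP made up 12.6 ± 2.63% of the summed breakdown signal per kb in shGLO1#1 and 0.835 ± 0.251% in shGLO1#2, against 4.53 ± 0.215% in shNT, most of the remainder being TMEM2 and HYAL2.

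Likeness to HAS2 or CEMIP was the root mean square difference of centred log2 CPM over the 9 libraries, taken for each of 13703 genes. Among the genes most like HAS2 were TRABD2A (0.219) and BMP8B (0.224), where the median gene was at 1.09. TRABD2A had log2 fold changes of 1.78 and 2.48 in shGLO1#1 and shGLO1#2, and BMP8B, a ligand of the BMP family, 1.35 and 2.71. Nearest to CEMIP were C16orf45 (0.293), RNF128 (0.337) and UGT2B7 (0.582), where the median gene was at 1.83. C16orf45 had log2 fold changes of 1.96 and -2.17 in shGLO1#1 and shGLO1#2, and RNF128, a ubiquitin ligase, 1.28 and -2.90. UGT2B7, which transfers glucuronic acid from the donor that UGDH makes, averaged 0.0186 CPM in shGLO1#2, under the level of 3 counts in a library. The likeness is a description over libraries of 3 clones.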

How the data were processed

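RNA of 9 MDA-MB-231 libraries, 3 per clone, was prepared with a TruSeq kit that keeps no strand. Per the labels and methods, the authors' tools were bcl2fastq 2.17, TopHat2 2.1.1 (build hg19) and HTSeq. For HTSeq the version, annotation and strand setting were not given in the sources used here. Raw counts per gene symbol were deposited, without normalization. Of all reads in the tables, 77.1 to 79.5% fell on genes; rows naming no gene (no feature 12.8 to 15.2%, ambiguous 1.50 to 1.95%, not unique 5.76 to 6.15%) were left out, and reads overlapping several genes or mapping to several places are thus not in any gene's count.

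Counts were fitted in R 4.3.3 with edgeR 4.0.16 (filterByExpr with 10 and 15 counts, TMM, quasi-likelihood test) over all 9 libraries, since the groups then share an estimate of the spread. p-values were adjusted over all 13704 genes, and a call needed an adjusted p under 0.05 and a log2 fold change beyond 1. Log2 CPM had a prior count of 0.5. DESeq2 1.42.0 was an alternative. Simulated counts with known changes tested the fit. The members, relatives and lists were chosen with earlier results of these data known; named genes were all members, their relatives, list members called in a clone (at most 6 per list), CD44, TPX2, and the 3 genes most like HAS2 and CEMIP, of which 1 is not reported here. Exon lengths and overlaps came from GENCODE v29 and promoters from RefSeq GRCh38.p14, another build than the counts, so no hg19 coordinate is given. Correlations of deviations at the same replicate number were 0.17, 0.16 and 0.26 between shGLO1#2 and shNT, where different numbers gave at most -0.0104. Between the clones they were 0.182, 0.0654 and 0.299, where different numbers gave at most 0.0565. In both pairs every same-number value was thus the higher. Between shGLO1#1 and shNT they were -0.05, 0.03 and 0.21, where different numbers gave up to 0.127, so the numbers did not pair these groups. Libraries of a group differed beyond sampling noise (chi-square per degree of freedom 3.10 to 8.60), so all 9 were kept. The floor of 3 counts covers counting error only, while intervals of fold changes include the spread between samples.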

Additional observations from a re-analysis of the deposited data

Results flagged for a closer look

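The response against shNT differed between the clones, by the edgeR test of shGLO1#2 minus shGLO1#1 on the log2 scale, for 4 of the 8 tested members. HAS2 was higher in shGLO1#2 by 0.99, while HAS3 (-1.70), HYAL2 (-0.68) and CEMIP (-4.36) were lower there, and these 3 had opposite signs against shNT, with HYAL2 in shGLO1#1 (0.17, adjusted p = 0.0912) not past the test. Of the related genes, only those called in a clone, CD44 and TPX2 were looked at here. Among them, HAS2-AS1 (1.23), PTX3 (0.65) and TPX2 (0.19) were higher in shGLO1#2 than in shGLO1#1. CSGALNACT1 (-1.13), ITIH4 (-0.62) and CD44 (-0.25) were lower. Other genes of the lists differed too, such as TLR4 (0.55) and PGM3 (0.31), higher in shGLO1#2, and UGP2 (-0.61) and NAGK (-0.55), lower. Of the 15 mitotic genes, TPX2 included, 13 were higher past the adjusted p and 0 lower. Over all tested genes, 46.5% passed the adjusted p in this comparison. UGDH (0.06, interval -0.08 to 0.21), TMEM2 (-0.11, interval -0.25 to 0.04), HYAL3 (0.13, interval -0.15 to 0.40) and HMMR (0.01, interval -0.19 to 0.20) did not pass this test.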

How the results depend on the processing

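The members called in the 3 pairwise comparisons and in the pooled one (2, 2, 2 and 1) stayed within 1.5 times of those counts under every alternative run. With the replicate block the counts were 2, 2, 2 and 1, and HAS2 was 1.49 in shGLO1#1 and 2.47 in shGLO1#2, so the pairing changed no member's call. Leaving out 1 replicate at a time gave 2 to 2, 2 to 3, 2 to 3 and 1 to 1 members. HAS2 kept 1.28 to 1.71 in shGLO1#1 and 2.26 to 2.70 in shGLO1#2, and CEMIP 1.62 to 1.94 and -2.81 to -2.36. With upper quartile scaling HAS2 passed the fold limit between the clones (1.01). The balance moved with its gene set: with UGDH added it differed from shNT by 0.18 in shGLO1#1 and 0.84 in shGLO1#2, and with CEMIP and TMEM2 as the only breakdown genes by 0.21 and 2.10, with 1.89 between the clones. Without CEMIP the difference from shNT was 0.65 in shGLO1#2 and larger than that in shGLO1#1. In alternatives chosen after seeing the data, it was 1.50 in shGLO1#2 without HYAL1 and 1.91 from CPM sums per kb. Between the clones these gave -0.35, reversed, 0.91 and 0.99. Leaving out replicates gave 0.48 to 0.84, 1.14 to 1.28 and 0.37 to 0.72. Values near 0 changed sign: CD44 in shGLO1#1 was 0.0243 under upper quartile scaling, 4.44e-05 when genes under a mean of 1 CPM were left out, 1.86e-04 with only the compared groups and -0.0609 to 0.0295 without single replicates. TPX2 in shGLO1#2 was 0.0329 under upper quartile scaling and -0.0467 to 0.0238 without single replicates. Without single replicates TMEM2 in shGLO1#2 ranged from -0.00356 to 0.0814, HMMR between the clones from -0.0420 to 0.0763, and HAS3 in both clones together from -0.17 to 0.0844. The causes of these changes were not tested. HYAL2 in shGLO1#1 (0.17) passed the adjusted p, though not the fold limit, with the replicate block (0.18, adjusted p = 0.0388). HYAL1 rests on 4 to 15 counts per library.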

Other observations

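HYAL4, which acts on chondroitin more than on hyaluronan, had 9, 6 and 9 counts in shGLO1#1 and 2, 0 and 2 counts in shGLO1#2, against 4, 4 and 5 counts in shNT, too few to be tested with the filter on low counts. Fitted without it, the log2 fold change between shGLO1#2 and shGLO1#1 was -2.43 (adjusted p = 0.00611), and those against shNT were 0.76 in shGLO1#1 (adjusted p = 0.330) and -1.67 in shGLO1#2 (adjusted p = 0.122). Replicate 1 of shNT was the lowest of the 9 libraries for HAS2, HAS2-AS1, GFPT2 and PTX3, at 3.02, 0.739, 3.23 and 12.0 CPM.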
